A study of Mus with 4 samples.

Results

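Atrial and ventricular chamber genes were examined in RNA-Seq libraries of newborn mouse hearts. The set comprised 8 genes matched to the deposited table by Ensembl gene ID, out of 55487 IDs in all. *Nppa* and *Nppb* encode natriuretic peptides, *Myl7*, *Myl4* and *Sln* are enriched in the atria, and *Myl2*, *Myl3* and *Irx4* are enriched in the ventricles. All 8 passed the filter on low values used for testing, a mean of at least 1 FPKM (sequenced fragments scaled by transcript length and by the mapped total of the library) over the libraries, and none was left out.

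The study asked how a raised level of the microRNA miR-187 alters the transcriptome of the heart. The 4 libraries were labelled as heart tissue at postnatal day 0 (P0) and fell into 2 groups, wild type (WT, n = 2) and mice overexpressing miR-187 (miR-187, n = 2). In the knockin (KI) line of the study, exogenous miR-187 is placed under the *Tek* (*Tie2*) promoter, active in endothelial cells, which include the inner lining of both chambers but not heart muscle. The methods name homozygous KI/KI animals for RNA-Seq, whereas the labels give no zygosity, strain or sex and do not say whether a library held 1 heart or several. The methods also speak of cardiac endothelial cells for this assay, so the muscle genes described here bear on what the libraries contained. Nothing states that the replicates came from separate litters or animals, so the p-values rest on spread between libraries, which may be technical. The test used (limma) also draws on the spread of other genes, not only on that of the gene tested.

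The heart forms as a tube of muscle whose atrial and ventricular parts take on different contractile proteins. Each myosin head of striated muscle binds a regulatory and an essential light chain. *Myl7* and *Myl4* encode the atrial regulatory and essential chains, and *Myl2* and *Myl3* the ventricular pair. *Sln* encodes sarcolipin, a small membrane protein that inhibits the calcium pump of the sarcoplasmic reticulum in atrial and skeletal muscle. *Irx4* encodes a homeobox transcription factor confined to the ventricles that holds down atrial genes there. *Nppa* and *Nppb* encode atrial and B-type natriuretic peptide, hormones released by stretched heart muscle that act on kidney and vessels. *Nppa* is also made by the fetal ventricle, where it declines around birth, and both peptides return in the ventricle under load.

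On GRCm38 (mm10), *Nppb* (ENSMUSG00000029019.8) lies at chr4:147985786-147987205 and *Nppa* (ENSMUSG00000041616.9) at chr4:148000722-148002074, with 13516 bp and 0 other RefSeq genes between them. *Myl7* (ENSMUSG00000020469.8, chr11:5896637-5898782) and *Myl4* (ENSMUSG00000061086.12, chr11:104546017-104587215) share a chromosome without being neighbours. The same holds for *Sln* (ENSMUSG00000042045.6, chr9:53850251-53853849) and *Myl3* (ENSMUSG00000059741.13, chr9:110763678-110769802). *Myl2* (ENSMUSG00000013936.12) is at chr5:122092724-122113473 and *Irx4* (ENSMUSG00000021604.15) at chr13:73259589-73269622. All 8 are annotated as protein-coding, and the positions are those of whole genes.

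Read depth was unknown, since FPKM hold no counts. The FPKM sums of the libraries ranged from 750826 to 807359, and IDs of at least 1 FPKM numbered from 13270 to 17047. Together the 8 genes made up 1.51% of the FPKM sum in WT replicate 1 and 3.38% in WT replicate 2. The share was 1.27% in miR-187 replicate 1 and 1.53% in replicate 2. WT replicate 2 therefore stood apart from the other 3 libraries, and the group difference of each of the 8 genes is also given without it. *Nppa* alone was 1.63% of the sum in that library and between 0.312% and 0.425% in the others.

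Heart muscle transcripts were among the most abundant of every library. *Nppa*, *Myl7*, *Myl4*, *Myl2* and *Myl3* were within the 100 highest IDs in each of the 4 libraries. *Myl7* ranked between 20 and 26 of 55487, and *Myl2* between 23 and 33. *Myl3* held ranks 29 to 46, *Myl4* ranks 72 to 100 and *Sln* ranks 191 to 298. The rank of *Nppb* varied more than that of any other member, from 339 in WT replicate 2 to 3149 in miR-187 replicate 2. *Irx4*, which encodes a transcription factor, ranked between 7273 and 8251. Endothelial markers were not analysed here, because no source used here pairs other gene names with the IDs.

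**Figure D1:**
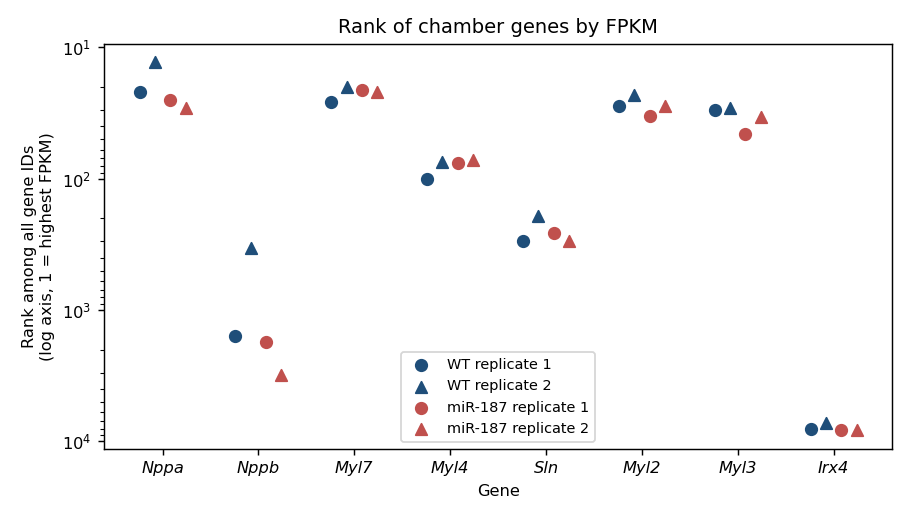
Rank of each chamber gene by FPKM among all 55487 gene IDs (log axis, 1 is the highest FPKM) in each library, with WT in blue, miR-187 in red, replicate 1 as circles and replicate 2 as triangles. The 4 light chain genes and *Nppa* sit within the 100 highest IDs of every library, *Nppb* ranges from rank 339 to 3149, and *Irx4* lies between ranks 7273 and 8251.

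In order of mean FPKM, *Nppa* came first in WT (7828), followed by *Myl7*, *Myl2*, *Myl3*, *Myl4*, *Sln*, *Nppb* and *Irx4*. In miR-187 *Myl7* came first (3617), *Nppa* second (2836), and the order was otherwise the same. Within each WT library the order was *Nppa*, *Myl7*, *Myl2*, *Myl3*. Compared library by library, *Myl7* exceeded *Myl2*, *Myl2* exceeded *Myl3*, *Myl3* exceeded *Myl4* and *Myl4* exceeded *Sln* in all 4 libraries. *Nppa* changed places, being above *Myl7* in both WT libraries, between *Myl7* and *Myl2* in miR-187 replicate 1 and below *Myl2* in miR-187 replicate 2. *Sln* was above *Nppb* in each library, although by 419 against 212 FPKM in WT replicate 2 and by 206 against 11.8 FPKM in miR-187 replicate 2.

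**Figure D2:**
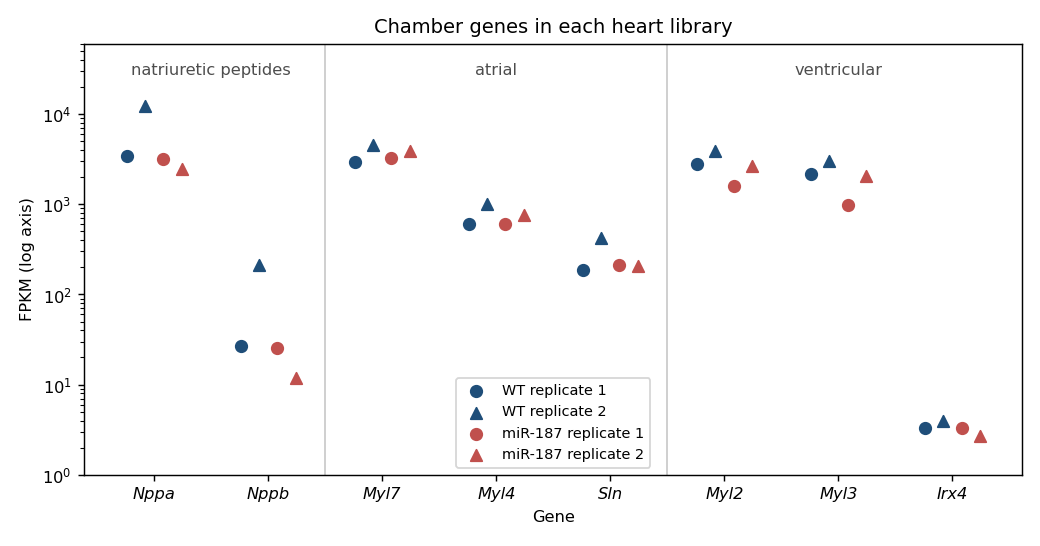
FPKM of the 8 chamber genes (log axis) in the 4 libraries, with WT in blue, miR-187 in red, replicate 1 as circles and replicate 2 as triangles. WT replicate 2 is the highest library for every gene, by a wide margin for *Nppa* (12225 FPKM) and *Nppb* (212 FPKM).

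The natriuretic peptide genes had the widest spread. For *Nppa*, WT replicates 1 and 2 measured 3431 and 12225 FPKM, while miR-187 replicates 1 and 2 measured 3203 and 2470 FPKM. The groups did not overlap, but WT replicate 1 exceeded miR-187 replicate 1 by only 1.07 times, and it lay nearer to both miR-187 libraries than to the other WT library. The WT mean was 7828 ± 6219 FPKM and the miR-187 mean 2836 ± 518 FPKM (SD, n = 2 each). On the log2(FPKM + 1) scale, the difference of miR-187 minus WT was -1.20 (SE 0.52), with a limma p of 0.0315 and an adjusted p of 0.9997. The WT replicates differed by 1.83 on the same scale, a wider gap than that between the groups. Without the filter on low values the SE of *Nppa* was 0.84. Without WT replicate 2 the group difference was -0.29, and without WT replicate 1 it was -2.12. The adjusted p of *Nppa* lay between 0.0608 and 1.00 over the alternatives tried.

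*Nppb*, the peptide gene usually described as most responsive to wall stretch, showed the same order of libraries. The WT libraries measured 26.6 and 212 FPKM, the miR-187 libraries 25.7 and 11.8 FPKM. The groups again did not overlap, by a margin of 1.03 times between WT replicate 1 and miR-187 replicate 1. The log2 difference between groups was -2.05 (SE 0.62), with a limma p of 0.00313 and an adjusted p of 0.9997. The 95% interval of that difference, not adjusted for the number of genes, ran from -3.33 to -0.77. Without the filter on low values, limma drew less on other genes (prior degrees of freedom 2.66 against 19.5). The SE of *Nppb* was then 1.05. The WT replicates were 2.95 apart on the log2 scale, with WT replicate 2 at 7.97 times replicate 1. Of 14325 genes tested, 11 had a wider gap between the WT replicates than *Nppb* and 101 a wider gap than *Nppa*. The miR-187 replicates of *Nppb* were 1.06 apart, in the opposite order.

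The call for *Nppb* depended on the processing. Its adjusted p (limma) ranged from 9.45e-11 to 1.00 over 13 alternatives, and it was under 0.05 in 4 of these. They were the replicate block (0.00841), scaling without the most abundant IDs (0.00384), and the fits without WT replicate 1 (9.45e-11) or without miR-187 replicate 1 (0.00241). Without WT replicate 2 the log2 difference was -0.58 and without miR-187 replicate 2 it was -1.52, with adjusted p-values above 0.05, whereas without WT replicate 1 it was -3.53. *Nppa* exceeded *Nppb* by 129 and 57.6 times in WT and by 124 and 209 times in miR-187, so WT replicate 2 had the lowest ratio of the 2 peptides.

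The atrial genes differed less between libraries. *Myl7*, the atrial regulatory light chain, stood at 2962 and 4599 FPKM in the WT pair, against 3301 and 3933 FPKM in the miR-187 pair. Both miR-187 values lay between the WT values. The log2 difference was -0.03 (SE 0.45) with an interval from -0.97 to 0.90, which leaves room for a change of nearly 2-fold either way. *Myl4*, the atrial essential light chain, stood at 606 and 1008 FPKM in the WT pair, against 608 and 756 FPKM in the miR-187 pair, also within the WT range, and a log2 difference of -0.20 (SE 0.45). *Sln* stood at 188 and 419 FPKM in the WT pair, against 211 and 206 FPKM in the miR-187 pair, within the WT range, with a log2 difference of -0.43 (SE 0.46). The miR-187 replicates of *Sln* were within 0.03 of each other on the log2 scale, whereas WT replicate 2 was 2.23 times WT replicate 1. Without WT replicate 2 all 3 atrial genes had differences above 0, of 0.28 for *Myl7*, 0.16 for *Myl4* and 0.15 for *Sln*.

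Among the ventricular genes, both light chains had their lowest value in miR-187 replicate 1. *Myl2*, the ventricular regulatory chain, stood at 2764 and 3899 FPKM in the WT pair, against 1615 and 2662 FPKM in the miR-187 pair. The groups did not overlap, with WT replicate 1 at 1.04 times miR-187 replicate 2. The means of *Myl2* were 3331 ± 802 and 2139 ± 740 FPKM (SD, n = 2 each), and the log2 difference was -0.66 (SE 0.46). *Myl3*, the ventricular essential chain, stood at 2184 and 2994 FPKM in the WT pair, against 993 and 2077 FPKM in the miR-187 pair. Here too the groups did not overlap, by a margin of 1.05 times, and the log2 difference was -0.83 (SE 0.47). The miR-187 replicates of *Myl3* differed by 2.09 times, more than the WT replicates did at 1.37 times. Without miR-187 replicate 1 the differences were -0.30 for *Myl2* and -0.30 for *Myl3*, and without WT replicate 2 they were -0.41 and -0.60. They widened to -0.91 and -1.06 without WT replicate 1, and to -1.02 and -1.36 without miR-187 replicate 2.

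*Irx4*, the ventricular transcription factor gene, stood at 3.28 and 3.95 FPKM in the WT pair, against 3.33 and 2.70 FPKM in the miR-187 pair. These values overlapped, and the log2 difference was -0.20 (SE 0.34), or -0.10 without WT replicate 2. Of the 8 genes *Irx4* varied least, with a highest library at 1.46 times the lowest. It had too few FPKM for the filter of 5 FPKM and was not tested under that alternative.

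**Figure D3:**
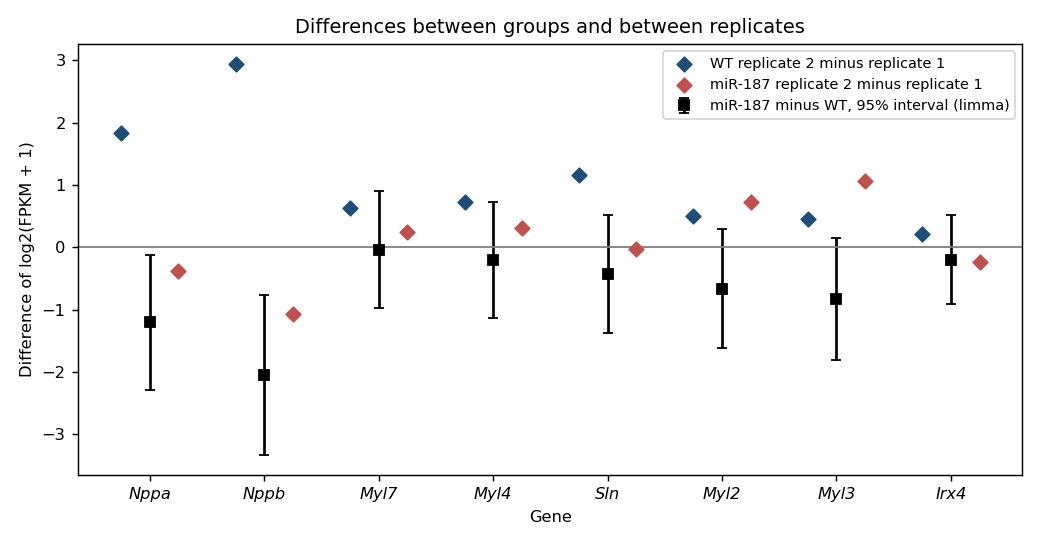
Differences of log2(FPKM + 1) for each chamber gene: black squares give miR-187 minus WT with the 95% interval of limma, and diamonds give replicate 2 minus replicate 1 within WT (blue) and within miR-187 (red). For *Nppa* and *Nppb* the WT replicates lie 1.83 and 2.95 apart, more than the groups do (-1.20 and -2.05), and the intervals of the other 6 genes include 0.

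Tested across all genes, 0 of 8 chamber genes had an adjusted p under 0.05 in either direction (limma, Benjamini-Hochberg). The background was 0% of 14325 genes higher and 0.00698% lower in miR-187. Before adjustment, 2 of 8 members (*Nppa* and *Nppb*) had a p under 0.05, against 3.12% of genes tested. All 8 members had a log2 difference below 0, as did 55.7% of genes. Differences of at least 2-fold between groups, all lower in miR-187, were found for 2 of 8 (*Nppa* and *Nppb*), against 0.817% of genes. The median was -0.54 over the members and -0.04 over all genes. Groups did not overlap for 4 of 8 members (*Nppa*, *Nppb*, *Myl2* and *Myl3*), all lower in miR-187, against 13.2% of genes in that direction. The margin between the nearest libraries was at most 1.07 times in each of the 4. An exact permutation test of 2 libraries against 2 has a smallest possible two-sided p of 0.333, so none was used.

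The count of members below 0 moved with WT replicate 2. Without it, 5 of 8 were below 0 (51.9% of genes), 0 were at least 2-fold lower (1.49% of genes) and 0 had an unadjusted limma p under 0.05 (3.42% of genes). The median was then -0.19 over the members and -0.02 over all genes. Still without WT replicate 2, both miR-187 libraries lay below WT replicate 1 for the same 4 genes (*Nppa*, *Nppb*, *Myl2* and *Myl3*, against 31.3% of genes) and above it for *Myl7*, *Myl4* and *Sln* (28.4% of genes). Leaving out WT replicate 1 or either miR-187 library in turn instead, 7 or 8 members were below 0 (42.9% to 63.3% of genes), 2 to 4 were at least 2-fold lower (1.72% to 4.21% of genes) and 2 to 4 had an unadjusted p under 0.05 (3.3% to 6.58% of genes). The member median then lay between -0.96 and -0.31, and that of all genes between -0.14 and 0.06. Members lower in miR-187 without overlap numbered 8 without WT replicate 1 (34.3% of genes). They numbered 5 without miR-187 replicate 1 (44.2%) and 4 without miR-187 replicate 2 (24%). WT replicate 2 was the highest of the 4 for 8 of 8 members, as it was for 29.1% of all genes tested and for 43.6% of the 3737 genes averaging 10 FPKM or more. In 3 of 8 members (*Nppa*, *Nppb* and *Sln*) WT replicate 2 was at least 2-fold above WT replicate 1, on the log2(FPKM + 1) scale, against 4.75% of genes. The lowest library was miR-187 replicate 2 for *Nppa*, *Nppb* and *Irx4*, miR-187 replicate 1 for *Myl2* and *Myl3*, and WT replicate 1 for *Myl7*, *Myl4* and *Sln*. What sets WT replicate 2 apart was not tested. In bulk tissue more cells of a type and more RNA per cell cannot be told apart.

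Ratios of atrial to ventricular genes within a library do not depend on how the library was scaled. They were used to describe its balance of atrial and ventricular transcripts. Chamber content and expression per cell cannot be told apart by them. FPKM of *Myl7* were 1.07 and 1.18 times those of *Myl2* in WT, and 2.04 and 1.48 times in miR-187. For *Myl4* and *Myl3* the ratio was 0.278 and 0.337 in WT, whereas it was 0.613 and 0.364 in miR-187. Both ratios were higher in each miR-187 library than in either WT library, and miR-187 replicate 1 was the highest in both. WT replicate 2, which stood apart for the natriuretic peptides, did not do so for either light chain ratio.

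Expressed as a share, the atrial form made up 51.7% and 54.1% of the regulatory light chain FPKM (*Myl7* of *Myl7* and *Myl2* together) in WT, and 67.1% and 59.6% in miR-187. The means were 52.9% ± 1.69 and 63.4% ± 5.31 (SD, n = 2 each). Of the essential light chain, the atrial form (*Myl4* of *Myl4* and *Myl3* together) was 21.7% and 25.2% in WT, and 38.0% and 26.7% in miR-187. The 2 lowest shares of each chain were those of WT.

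On the log2 scale, the difference in ratio of miR-187 minus WT was 0.63 for *Myl7* to *Myl2*, where the pooled SD of replicates was 0.24. It was also 0.63 for *Myl4* to *Myl3*, with a pooled SD of 0.40. Without miR-187 replicate 1 these values were 0.39 and 0.25, and without miR-187 replicate 2 they were 0.86 and 1.003. Without WT replicates 1 and 2 in turn they were 0.56 and 0.70 for the regulatory pair, and 0.49 and 0.77 for the essential pair. Between libraries numbered 2 the ratios differed by 0.32 and 0.11, and between those numbered 1 by 0.93 and 1.14. Among all 6973245 pairs of genes averaging 10 FPKM or more, 32.5% had ratios whose groups did not overlap, and 27.3% had a group difference at least as far from 0 as that of *Myl7* to *Myl2*. A difference of this size was therefore common among gene pairs in these libraries.

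The third ratio did not separate the groups. *Sln* to *Myl2* was 0.0680 and 0.108 in WT, and 0.131 and 0.0776 in miR-187, with the values of the groups interleaved. Its log2 difference was 0.24, with a pooled SD of 0.50. It was -0.09 without WT replicate 1 and -0.14 without miR-187 replicate 1, but 0.57 without WT replicate 2 and 0.61 without miR-187 replicate 2. The mean log2 FPKM of the 3 atrial genes minus that of the 3 ventricular genes was 1.36 and 1.80 in WT, and 2.10 and 1.79 in miR-187. That difference between groups was 0.36 (pooled SD 0.27), and the groups overlapped. It ranged from 0.15 without WT replicate 1, through 0.21 and 0.52 without miR-187 replicates 1 and 2, to 0.58 without WT replicate 2.

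Of the 9 ratios that 3 atrial and 3 ventricular genes can form, 8 were on average higher in miR-187. The range of log2 differences was -0.16 (*Sln* to *Irx4*) to 0.80 (*Myl7* to *Myl3*). The groups did not overlap in 4 of the 9, which are the 4 ratios among light chain genes, against 32.5% of gene pairs. Without WT replicate 2, 9 of 9 were on average higher in miR-187, and in 8 both miR-187 libraries lay on the same side of WT replicate 1, as they did in 60.9% of gene pairs. Without each of the other 3 libraries in turn, 6 of 9 were on average higher. The groups then did not overlap in 5 of 9 ratios without WT replicate 1 (67.7% of gene pairs), 6 without miR-187 replicate 1 (68.9%) and 7 without miR-187 replicate 2 (67.6%). These ratios share genes and are not independent of each other. The gene pairs set beside them were of genes averaging 10 FPKM or more, a level that *Irx4* did not reach.

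**Figure D4:**
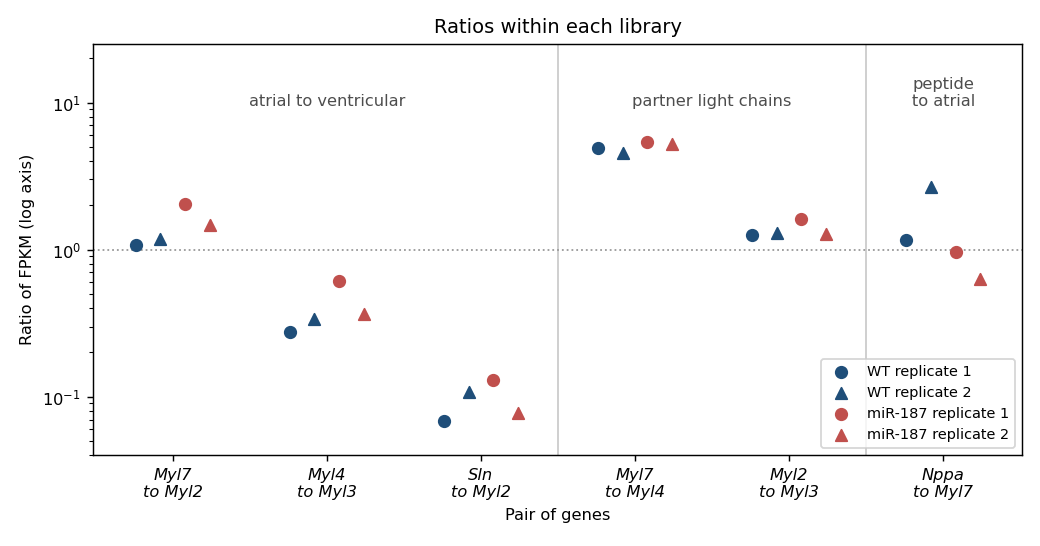
Ratios of FPKM between pairs of chamber genes within each library (log axis, dotted line at a ratio of 1), with WT in blue, miR-187 in red, replicate 1 as circles and replicate 2 as triangles. The *Myl7* to *Myl2* ratio lies at 1.07 and 1.18 for WT but 2.04 and 1.48 for miR-187, whereas *Sln* to *Myl2* overlaps, and the ratios of partner light chains span 0.25 and 0.36 on the log2 scale.

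Light chains that pair on the same myosin stayed close to one another. *Myl7* exceeded *Myl4* by 4.89 and 4.56 times in WT, and by 5.43 and 5.21 times in miR-187, so that the log2 ratio spanned 0.25 over the 4 libraries. Although both genes are atrial, the groups did not overlap in this ratio, as in 32.5% of gene pairs. Its log2 difference was 0.17 (pooled SD 0.058). *Myl2* exceeded *Myl3* by 1.27 and 1.30 times in WT, and by 1.63 and 1.28 times in miR-187, with a span of 0.36. Across chambers the corresponding spans were wider, at 0.93 for *Myl7* to *Myl2* and 1.14 for *Myl4* to *Myl3*. This contrast did not extend to *Irx4* and *Sln*. Within a chamber, *Irx4* to *Myl2* spanned 1.03 and *Sln* to *Myl7* spanned 0.80. Across chambers, *Myl7* to *Irx4* spanned 0.69 and *Myl4* to *Irx4* spanned 0.62.

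Profiles over the 4 libraries, each centred on its own mean of log2(FPKM + 1), were compared by root mean square distance as a description. The nearest members were *Myl7* and *Myl4* (0.09) and *Myl2* and *Myl3* (0.15). These were not the nearest of all genes, since 80 of the 3737 genes averaging 10 FPKM or more lay closer to *Myl7* than *Myl4* did, and 52 lay closer to *Myl4* than *Myl7* did. The counts were 49 for *Myl2* and 14 for *Myl3*. *Nppa* and *Nppb* were 0.63 apart, as *Nppb* varied more, with 7 genes closer to *Nppb* than *Nppa* was and 580 closer to *Nppa* than *Nppb* was. *Sln* was the nearest member to *Nppa*, at 0.47. Not every member lay nearest to those of its own chamber. Ventricular *Irx4* was 0.24 from *Myl7* and 0.27 from *Myl4*, but 0.42 from *Myl2* and 0.56 from *Myl3*. *Myl7* was 0.29 from atrial *Sln*, further than from *Irx4*.

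*Sln* had the widest range over the libraries among the atrial genes (1.15 on the log2 scale) and *Myl3* among the ventricular genes (1.59). The genes nearest to *Sln* were ENSMUSG00000006418.17 (distance 0.02) and ENSMUSG00000038286.11 (0.03), of which the first had 13.6 and 30.2 FPKM in the WT pair and 15.1 and 14.9 FPKM in the miR-187 pair. Nearest to *Myl3* were ENSMUSG00000014301.13 (0.08) and ENSMUSG00000031059.9 (0.11), the first with 55.4 and 72.0 FPKM in the WT pair and 26.8 and 50.0 FPKM in the miR-187 pair. With 4 libraries many genes share such a profile.

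Set against the atrial light chain, *Nppa* was again highest in WT replicate 2. It was 1.16 and 2.66 times *Myl7* in WT, and 0.970 and 0.628 times in miR-187. The log2 difference of this ratio between groups was -1.17 (pooled SD 0.68), and it was -0.26 between the libraries numbered 1 and -2.08 between those numbered 2. Without WT replicate 2 it was -0.57, and without WT replicate 1 it was -1.77. Leaving out miR-187 replicates 1 and 2 in turn gave -1.48 and -0.85. *Nppa* to *Myl2* overlapped between groups, with 1.24 and 3.14 in WT, and 1.98 and 0.928 in miR-187.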

How the data were processed

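The 4 RNA-Seq libraries of P0 mouse heart tissue (WT and miR-187, 2 each) were analysed. The authors deposited FPKM for 55487 Ensembl IDs; per the labels, the processing notes name HISAT2, StringTie and DESeq2 and build mm10, without versions, and annotation and strand use were not given in the sources used here. FPKM divide by the mapped total, so abundant transcripts can lower all other values of a library, and they hold no counts, so depth is unknown.

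Symbols of the 8 genes were supplied with their IDs. A RefSeq table (GRCm38.p6) paired 0 IDs with names, so 18 further gene lists (131 symbols) were not analysed here. Members and lists were chosen with earlier results of these data known. All members are named, with the 2 genes nearest in profile to the atrial and to the ventricular member of widest range.

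Values were taken as log2(FPKM + 1), which understates the change of low genes, and the 14325 IDs averaging 1 FPKM or more were fitted with limma 3.58.1 in R 4.3.3 (eBayes with trend, two-sided, Benjamini-Hochberg, threshold 0.05). Ratios used FPKM without a pseudocount and received no test. Data were simulated for the miR-187 minus WT comparison (14325 genes, 200 of them changed). Of log2 changes of 1 and 2, 6.05% and 94.7% were recovered, with 3 and 12.5 false calls on average. The noise was normal, with each gene's spread drawn towards those of other genes as in limma. *Nppb* was thus simulated with less spread than its own libraries showed, so these shares do not apply to it. Alternatives changed the pseudocount, filter, scaling, trend, replicate block or libraries. Counts, medians and the *Nppa* to *Myl7* ratio with 1 library left out were chosen after seeing the data. Figures used matplotlib 3.10.9.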

Additional observations from a re-analysis of the deposited data

How the results depend on the processing

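Of 103 values for the 8 genes under alternatives, 91 kept both direction and call, 4 became calls (all for *Nppb*) and 8 changed sign, each from an uncalled value. *Myl7* was 0.0705 when scaled without the 10 most abundant IDs, 0.0025 with median centring and 0.0543 with quantile normalization, where *Myl4* was 0.17; the cause was not tested. Leaving out 1 library at a time gave from -0.35 to 0.28 for *Myl7*, -0.57 to 0.16 for *Myl4* and -1.002 to 0.15 for *Sln*. The lone library of an arm was then assumed to vary like the other group. Across all genes, 0 higher and 1 lower gene became 0 lower without a filter, 0 lower with a minimum mean of 5 FPKM and 0 lower with quantile normalization. Scaling without the 10 most abundant IDs gave 22 higher and 11 lower, with 1 chamber gene (*Nppb*) called. Leaving out 1 library gave 11 to 62 higher and 14 to 56 lower genes and 0 to 1 chamber genes, with an infinite prior degree of freedom in limma. With the replicate block there were 33 higher and 18 lower genes and 1 chamber gene, *Nppb* (-2.05, adjusted p 0.00841), also with an infinite prior. Deviations of same-numbered libraries correlated with r = -0.0675 over 14325 genes, so the libraries were not treated as pairs. Of 23 atrial-to-ventricular ratio values under alternatives, 21 were above 0 and 1 moved by more than 1 SD, the combined ratio from summed FPKM (0.65). A replicate block cannot move a ratio difference with 2 libraries per group and is not counted there. The gene lists had no names to match, so their alternative was not run. Depth limits could not be given.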
